A study of Mus musculus with 12 samples.

Results

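Rab GTPases, the small switches that direct vesicle traffic, were followed in dendritic cells (DCs) from young mice, young mice given antibiotics, old mice and old mice given Lactobacillus plantarum (LP). The members were every gene on the array whose symbol is Rab followed by a number and at most 1 letter, so that proteins which only bind Rabs were left out. This gave 57 genes of 24232 named on the array, read by 93 of 56605 probes. For a gene with several probes, the brightest on average stands for it, and Rab6b is given at all of them.

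Bone marrow cells of female C57BL/6 mice were grown into DCs with GM-CSF and IL-4, and every culture, controls included, was stimulated with LPS at 1 µg/ml for 24 h. DC-Young came from mice of 2 months, DC-Dysbiotic (labelled Young-Abx) from mice of 2 months that drank ampicillin, neomycin, metronidazole and vancomycin for 21 days, DC-Old from mice of 24 months, and DC-Old-LP from mice of 24 months given LP by gavage on alternate days over 21 days. These ages are those of the labels, while the text of the study gives ranges of age that differ between its sections. Mice were treated, but RNA came from cells grown afterwards in culture. Each group has 3 single-colour Agilent arrays, A, B and C, each of a pool of 3 mice. The study describes the 3 arrays of a group as independent sets.

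Rab proteins alternate between a GTP-bound form that sits on membranes and recruits effectors and a GDP-bound form that GDI keeps in the cytosol. Guanine nucleotide exchange factors (GEFs) switch them on and GTPase-activating proteins (GAPs) switch them off, and a prenyl tail added by geranylgeranyl transferase anchors them. Each Rab marks its own compartment. Rab1, Rab2 and Rab6 serve the endoplasmic reticulum and Golgi, Rab5 the early endosome, Rab7 the late endosome, Rab11 the recycling endosome and Rab27a regulated secretion. In DCs these routes carry engulfed antigen to lysosomes, MHC molecules to the surface and cytokines out of the cell.

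Reference sequences are shown for the promoter of Rab6b, the member with the widest differences here, and of its close relative Rab6a. Rab6a is the broadly used Golgi Rab, and Rab6b is a second form known best from brain. Both windows run from 250 bases before to 50 bases after the gene start and come from RefSeq on GRCm38.p6. Rab6b is at chr9:103111824-103112123 on the plus strand and Rab6a at chr7:100607336-100607635 on the plus strand. Capitals mark matches, on either strand, to any of 9 short motifs searched.
Rab6b: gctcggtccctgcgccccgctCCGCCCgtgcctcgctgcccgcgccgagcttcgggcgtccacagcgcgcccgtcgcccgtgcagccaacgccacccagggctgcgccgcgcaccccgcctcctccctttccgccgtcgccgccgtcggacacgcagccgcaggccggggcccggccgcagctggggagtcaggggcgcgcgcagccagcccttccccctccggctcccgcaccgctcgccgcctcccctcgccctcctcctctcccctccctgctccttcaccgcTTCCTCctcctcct
Rab6a: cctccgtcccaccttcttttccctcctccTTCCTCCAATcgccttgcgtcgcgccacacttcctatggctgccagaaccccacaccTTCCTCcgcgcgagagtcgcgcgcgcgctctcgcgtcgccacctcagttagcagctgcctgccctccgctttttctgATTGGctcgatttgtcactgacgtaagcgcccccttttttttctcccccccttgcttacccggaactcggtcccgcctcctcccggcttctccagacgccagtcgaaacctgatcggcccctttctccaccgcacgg
The motifs were the TATA box TATAAA, the CCAAT box CCAAT, the GC box GGGCGG, the E-box CACGTG, AP-1 TGANTCA, CRE TGACGTCA, the PU.1 core GAGGAA, NF-kB and ISRE. The Rab6b window held 1 GC box and 1 PU.1 core, and the Rab6a window held 2 CCAAT boxes and 2 PU.1 cores, of which 1 overlapped a CCAAT box. A PU.1 core was in 28.3% of all 32851 promoter windows, a GC box in 35.7% and a CCAAT box in 37.4%. The table held 58 windows of 47 Rab genes, and none for Rab38. A GC box was in 69.0% of the Rab windows, a CCAAT box in 43.1%, a PU.1 core in 19.0%, AP-1 in 5.17% and a TATA box in 6.90%, beside 7.81% and 13.6% of all windows for the last 2. G and C made up a median of 61.2% of the Rab windows and 52.7% of all windows, and 78.7% of the Rab6b window, the highest among the Rab windows. A match is a description of letters, not a binding site.

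The A and B arrays of all groups lay on 1 slide and had 61.2% to 66.4% of spots well above background. The C arrays of DC-Young and DC-Dysbiotic lay on a second slide and those of DC-Old and DC-Old-LP on another, and they were dimmer, with 37.3% to 46.0%. All 12 listed DC markers had a probe, and 10 were well above background on every array. Markers of other cells were also measured, among them 6 of 7 megakaryocyte and erythroid markers above background on every array, and none of the listed markers was below background on all arrays.

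Of the 57 Rab genes, 42 were well above background on all 12 arrays, 12 on some arrays and 3 on none (Rab3c, Rab9b and Rab39b). Values are log2 of the quantile-normalized intensity, and a value of 1 on this scale is a doubling. The C arrays stood apart for Rab genes as for other genes. The mean of the C arrays differed from that of the A and B arrays by more than 1 for 17 of 57 Rab genes (29.8%) and for 33.3% of all named genes. The widest gaps, picked after their values were seen, were those of Rab36, Rab10 and Rab21, at -3.19, -2.87 and -2.70 for the C arrays against the others, and of Rab44, at 1.68. The means of the A and B arrays never differed by more than 0.49 for a Rab gene. In a comparison of 2 groups, the 95% interval of a Rab gene reached 0.41 to 3.13 to each side of the difference, with a median of 0.91, so a doubling could be hidden for some members.

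**Figure D1:**
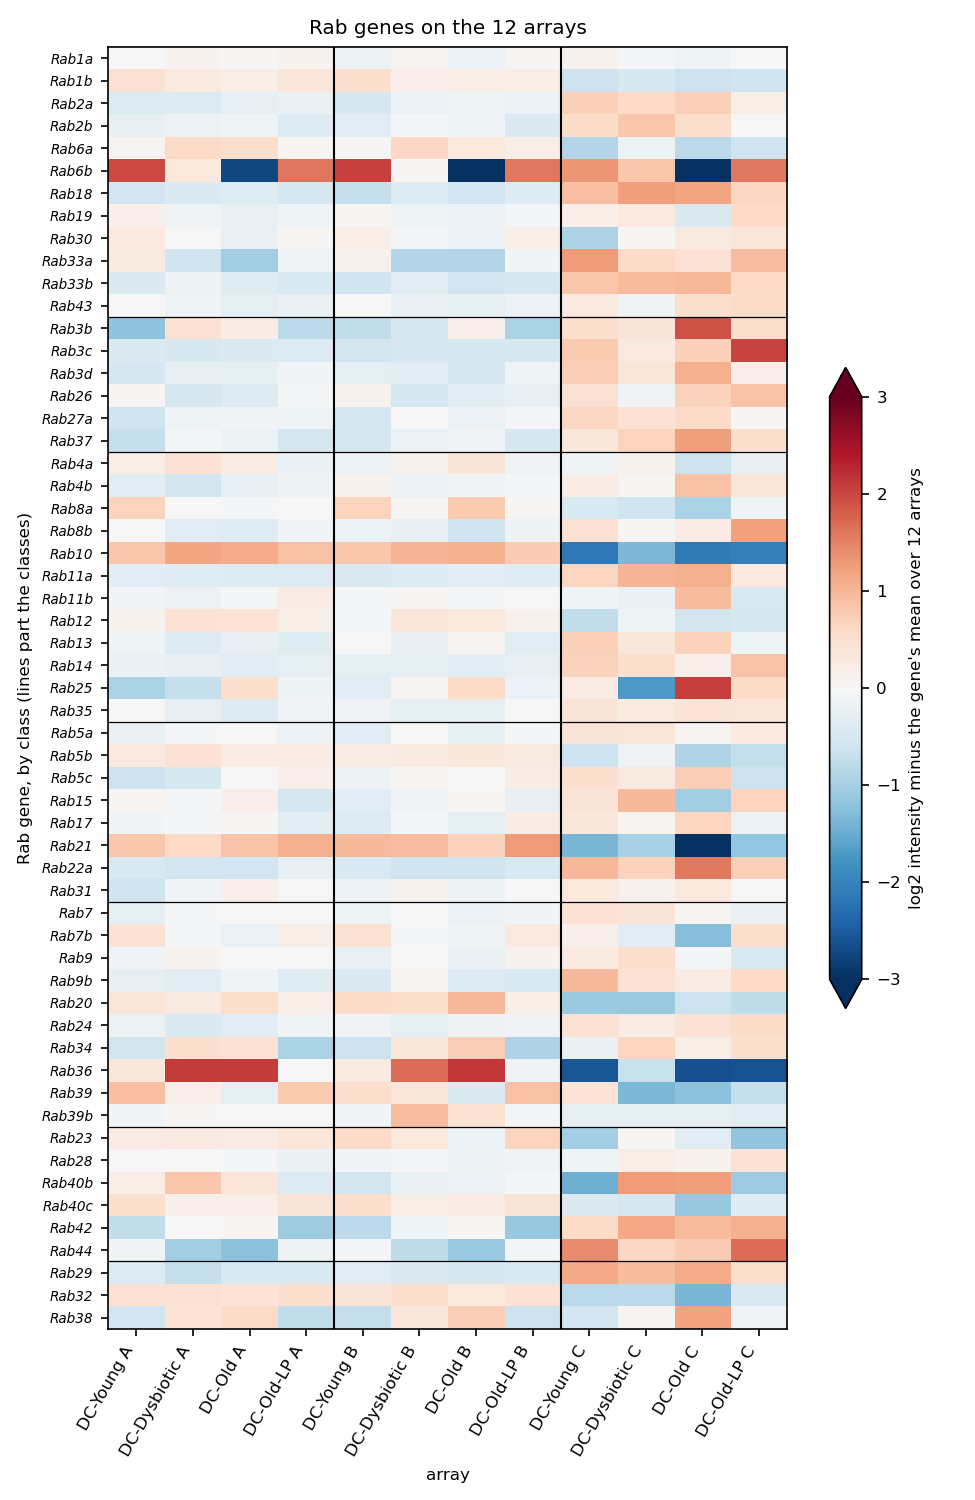
Log2 normalized intensity of the 57 Rab genes (rows, grouped by compartment) on the 12 arrays (columns, A then B then C), each minus the gene's mean over all arrays, with colours capped at 3. Rab6b is low on all 3 DC-Old arrays, and Rab10, Rab21 and Rab36 are low on the C arrays.

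Old against young DCs asks how ageing of the host is reflected in the cells. Rab6b was lower and Rab38 higher in DC-Old, and no other Rab gene passed both thresholds, an adjusted p of at most 0.05 and a difference of at least 0.5. The count was 2 of 57 Rab genes (3.51%), beside 0.904% of all named genes. The median difference over the 57 was 0.03, beside 0.003 over all named genes, and it was also 0.03 with genes that were dim in a whole group set at their bound.

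Rab6b, which works in transport between the Golgi and the endoplasmic reticulum, read 8.19, 8.24 and 7.53 on DC-Young arrays A, B and C and 3.47, 1.78 and 2.02 on those of DC-Old. All DC-Young arrays were far above all DC-Old arrays, and none of the DC-Old readings was well above background. On the intensity scale used here, Rab6b was therefore at least 10.6-fold lower in DC-Old, with the dim arrays set at the lowest signal well above background. The measured means were 7.99 ± 0.40 (SD, n = 3) and 2.42 ± 0.92 (SD, n = 3), a difference of -5.56 with an adjusted p of 0.000517 in limma. Since the DC-Old readings lay at background, sizes within slides are also bounds, of at least 25.6-fold within the A and B arrays and at least 1.85-fold between the dimmer C arrays. The difference was -2.36 after normexp background correction (adjusted p = 0.00108) and -2.45 in the log2 table of the authors (adjusted p = 0.000541), less than the size measured here by more than 1.5 times. Both are also smaller than the bound of 10.6-fold, which holds only on the scale used here. With only the 6 arrays of these groups in the fit, the adjusted p was 0.0640.

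A second probe of Rab6b read 1.72 to 2.52 over the 12 arrays and was well above background on none, so it gives no measure of the gene. Its difference between DC-Old and DC-Young was 0.24 with a 95% interval from -0.28 to 0.77. Rab6a, measured by its own probe, read 12.34, 12.31 and 11.39 in DC-Young and 12.78, 12.57 and 11.47 in DC-Old. These ranges overlapped, and the difference of 0.26 did not pass. Of the 3 named protein-coding genes on either side of Rab6b in the order of RefSeq, none passed in this comparison, and Amotl2 did with the array letter as a block in the fit.

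Rab38, which with Rab32 sorts cargo to melanosomes and other lysosome-related organelles, read 8.67, 8.53 and 8.68 in DC-Young and 9.83, 9.99 and 10.46 in DC-Old. Every DC-Old array lay above every DC-Young array. The difference was 1.47 (95% interval 0.91 to 2.03, adjusted p = 0.0307), a fold of 2.77, with 1.31 within the A and B arrays and 1.78 between the C arrays. The adjusted p ran from 0.00232 with normexp correction to 0.290 over the alternative settings. Rab38 passed in 6 of these 8 settings, and did not when arrays were aligned at the 75th percentile (0.106) or with only these 6 arrays in the fit (0.290). It was lost when any of DC-Young A, B or C, DC-Dysbiotic A or B, DC-Old A or B, or DC-Old-LP A or B was left out, with an adjusted p of 0.0197 to 0.153 over the 12 fits and a difference of 1.29 to 1.60. Rab32, its partner, gave a difference of -0.21 with an interval from -1.49 to 1.06.

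Markers of other cell types also differed between these groups. Of 7 megakaryocyte and erythroid markers, 5 read higher in the DC-Old group than in the young one, from 0.35 for Pf4 to 2.44 for Itga2b, and the erythroid genes Hba-a1 (-0.49) and Klf1 (-0.80) were measured lower. Their summed intensity ran from 56230 to 74730 in DC-Young, from 84720 to 117700 in DC-Dysbiotic, from 80420 to 120000 in DC-Old and from 60550 to 80610 in DC-Old-LP, so that DC-Young lay below DC-Dysbiotic and DC-Old on every array, and the top DC-Old-LP array was level with the lowest DC-Old array. Their median difference between DC-Old and DC-Young was 1.49, and 1 of 7 passed (Gp9, a platelet glycoprotein, at 2.36), or 4 of 7, all higher, with the array letter as a block in the fit. Of 8 neutrophil markers 1 passed (Camp, an antimicrobial peptide, at 2.71), while the median of the 8 was -0.68. The 3 T cell markers summed to 1982 to 3739 in DC-Old and to 5037 to 10190 in the other groups. The part of such cells in the Rab results was not tested. In bulk RNA, fewer cells of a type and less RNA per cell cannot be told apart.

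**Figure D2:**
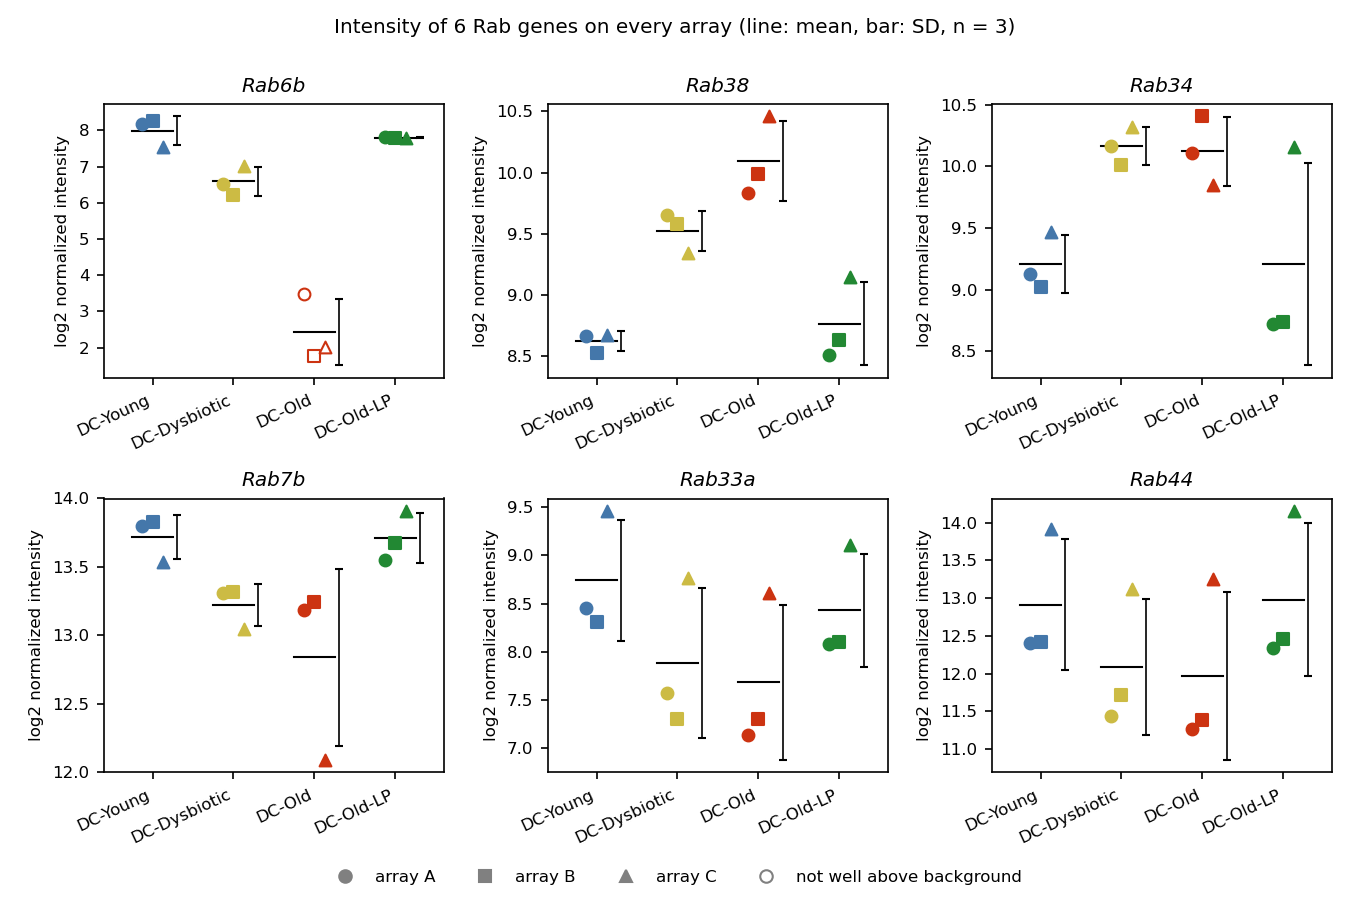
Log2 normalized intensity of Rab6b, Rab38, Rab34, Rab7b, Rab33a and Rab44 (1 panel each, with its own axis) on every array of the 4 groups, with lines for means and bars for SD (n = 3). Open symbols are readings not well above background, which occur on the 3 DC-Old arrays of Rab6b, and C arrays (triangles) of Rab33a and Rab44 lie above A and B in every group.

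Next in order of p came Rab7b, Rab34, Rab25 and Rab39, and none passed. Of these, Rab25 is given further below with other members of weak signal. Rab7b, a late endosomal Rab known to limit Toll-like receptor signalling, read 13.80, 13.83 and 13.54 in DC-Young and 13.19, 13.24 and 12.09 in DC-Old. The groups did not overlap, and the difference was -0.88 (adjusted p = 0.522). A second Rab7b probe gave -0.33 with overlapping groups. Rab34, which acts in macropinocytosis and the placing of lysosomes, read 9.13, 9.02 and 9.47 in DC-Young and 10.11, 10.41 and 9.85 in DC-Old. Again there was no overlap, with a difference of 0.91 (adjusted p = 0.711). Rab39, an endosomal Rab linked to presentation of engulfed antigen, read 5.86, 5.48 and 5.36 in DC-Young and 4.64, 4.51 and 3.71 in DC-Old. All DC-Old arrays were lower, by -1.28 between means (adjusted p = 0.739), and its probe was well above background on 8 of 12 arrays.

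Members with weak signal filled the rest of the named list. Rab25, a relative of Rab11 in epithelial recycling, read 2.58, 3.21 and 3.78 in DC-Young and 4.01, 4.07 and 5.59 in DC-Old. It was well above background on DC-Old A and B and on no DC-Young array, so the difference of 1.37 (adjusted p = 0.721) has no settled size. Rab3b, a Rab of secretory vesicles, read 2.61, 3.08 and 4.34 in DC-Young and 4.05, 3.98 and 5.72 in DC-Old. Its groups overlapped, it was likewise above background on DC-Old A and B and on no DC-Young array, and the difference was 1.24 (adjusted p = 0.944). Rab40b, of the Rab40 family that joins a ubiquitin ligase, read 3.59, 2.82 and 1.93 in DC-Young and 3.75, 3.20 and 4.64 in DC-Old. The overlap was again present, and the difference was 0.27 within the A and B arrays and 2.71 between the C arrays. Of these arrays, Rab40b was well above background on DC-Young A and DC-Old A alone, so neither difference has a settled size.

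With the array letter as a block in the fit, 4 of 57 Rab genes passed, beside 3.06% of all named genes. The additions were Rab33a and Rab44, named after their values were seen. Rab33a, a Golgi and vesicle Rab whose relative Rab33b binds the autophagy protein Atg16L1, read 8.45, 8.31 and 9.46 in DC-Young and 7.14, 7.30 and 8.61 in DC-Old. Rab44, a large Rab with calcium-binding EF hands found in immune cells, read 12.41, 12.42 and 13.92 in DC-Young and 11.27, 11.38 and 13.25 in DC-Old. Both were lower in DC-Old for each letter, although the groups overlapped over all arrays. The differences were -1.06 for Rab33a (adjusted p = 0.0123 with the block and 0.952 without) and -0.95 for Rab44 (0.0157 and 1). A second Rab44 probe gave -0.78 here and 0.63 for DC-Old-LP minus DC-Old, and did not pass in either with or without the block.

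Without adjustment of p, 6 of 57 Rab genes passed, 3 higher and 3 lower, beside 6.83% of all named genes. The groups did not overlap for 7 of 57, or 12.3%, beside 10.7%. With so few genes past a threshold, these shares set nothing particular to the Rab family apart.

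**Figure D3:**
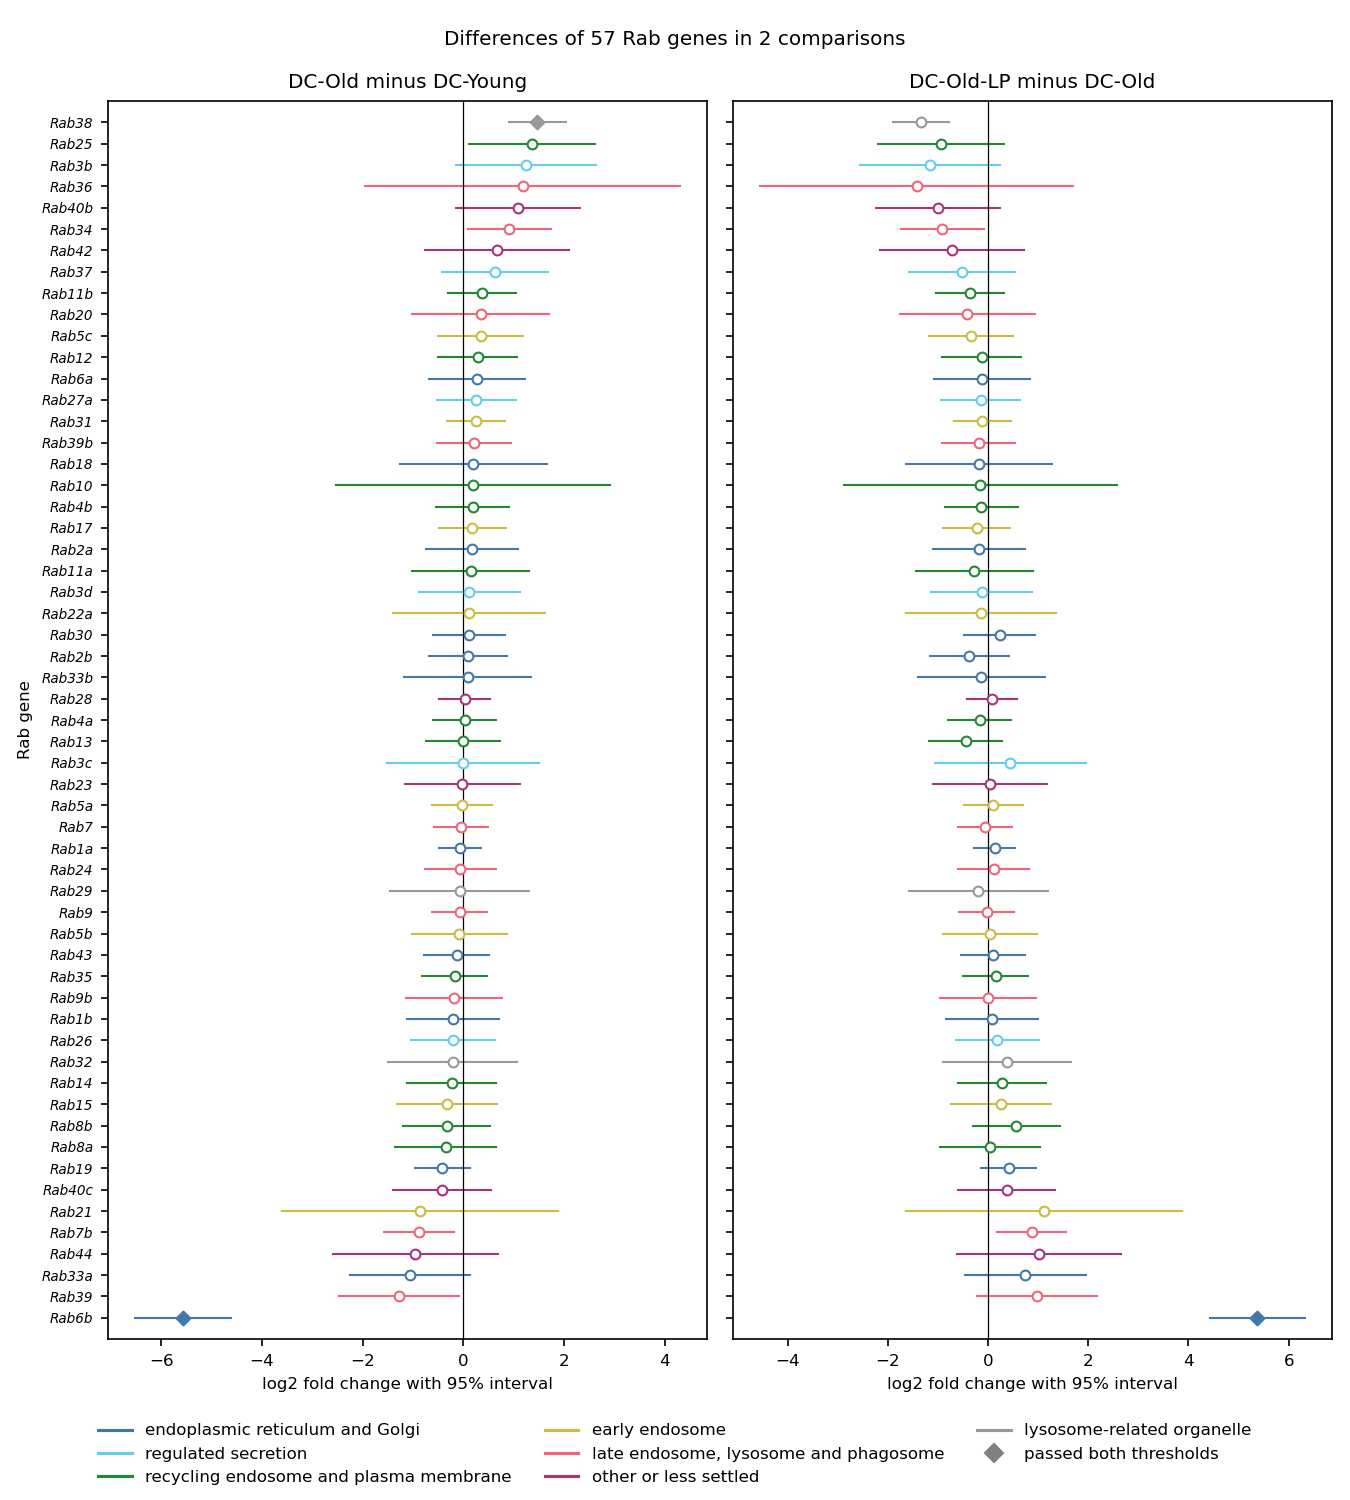
Log2 fold change with 95% interval of the 57 Rab genes for DC-Old minus DC-Young (left) and DC-Old-LP minus DC-Old (right), coloured by compartment and ordered by the left panel. Filled diamonds passed both thresholds, which were Rab6b and Rab38 on the left and Rab6b on the right, and most other intervals include 0.

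By compartment, the 12 Rabs of the endoplasmic reticulum and Golgi differed by -5.56 to 0.26 with a median of 0.01, and Rab6b alone passed. The 8 early endosomal Rabs differed by -0.86 to 0.34 and none passed. Rab5a, which drives fusion of early endosomes, differed by -0.03 with an interval from -0.62 to 0.56. None of the 12 Rabs of recycling endosomes and the plasma membrane passed (-0.35 to 1.37), among them Rab11a, Rab8b, Rab14, Rab35 and Rab10. Rab10, which returns Toll-like receptor 4 to the surface, had an interval from -2.54 to 2.90, so that little can be said of it. None of the 10 late endosomal and phagosomal Rabs passed (-1.28 to 1.18). Rab7, the main late endosomal Rab, differed by -0.04 with an interval from -0.58 to 0.50, and Rab20, found on macrophage phagosomes, by 0.35 with an interval from -1.01 to 1.70. None of the 6 secretory Rabs passed (-0.20 to 1.24). Rab27a, which docks lysosome-related vesicles, differed by 0.26 (interval -0.52 to 1.05) and Rab3d by 0.12 (interval -0.89 to 1.12). Rab43, a Golgi Rab with a part in cross-presentation by DCs, differed by -0.13 (interval -0.77 to 0.52). The interval lay within 1 of 0 for 17 of 57 members, so for the others a doubling or halving was not bounded.

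DC-Dysbiotic against DC-Young asks how loss of gut bacteria in young mice is reflected in the cells. No Rab gene passed of 57, beside 0.475% of all named genes. Without adjustment 4 of 57 passed, 3 higher and 1 lower, beside 4.44%, and the groups did not overlap for 7 of 57, beside 10.7%. With the letter as a block 2 of 57 passed, beside 1.38%, and these were again Rab33a and Rab44. Rab33a read 7.58, 7.30 and 8.76 in DC-Dysbiotic and Rab44 11.44, 11.72 and 13.12, each below the DC-Young array of the same letter. The differences were -0.86 (adjusted p = 0.0470 with the block) and -0.82 (0.0458).

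Rab6b read 6.53, 6.22 and 7.02 in DC-Dysbiotic, below every DC-Young array and above every DC-Old array. It differed from DC-Young by -1.40 (95% interval -2.35 to -0.45, adjusted p = 0.558), with -1.84 within the A and B arrays and -0.51 between the C arrays of the second slide. Rab38 read 9.65, 9.58 and 9.34, above every DC-Young array, and differed by 0.90 (adjusted p = 0.412). It passed here only with the slide as a block (0.0118), among 8 alternative settings. Rab34 read 10.16, 10.02 and 10.32, also above every DC-Young array, and differed by 0.96 (adjusted p = 1). The megakaryocyte and erythroid markers had a median difference of 1.49 here too, with 1 of 7 past both thresholds, or 3 of 7 with the block, and their part was not tested.

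DC-Old-LP against DC-Old asks what LP given to old mice changes. Rab6b was higher in DC-Old-LP, and it was the 1 Rab gene of 57 that passed, beside 0.512% of all named genes. It read 7.81, 7.79 and 7.78 in DC-Old-LP, all far above the DC-Old arrays. The mean of 7.79 ± 0.01 (SD, n = 3) was at least 9.30-fold above DC-Old, with the same bound for the dim arrays, and the measured difference was 5.37 (adjusted p = 0.00161). The bound was at least 19.1-fold within the A and B arrays and at least 2.20-fold between the C arrays, which share a slide in this comparison. After normexp correction the difference was 2.16, and in the log2 table of the authors 2.22. Both are smaller than the bound of 9.30-fold, which again holds only on the scale used here. With only these 6 arrays in the fit, the adjusted p was 0.270. This comparison and that of DC-Old with DC-Young share the DC-Old arrays, so Rab6b in both rests on the same 3 low readings.

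Rab38 read 8.51, 8.63 and 9.15 in DC-Old-LP, below every DC-Old array. The difference was -1.33 (interval -1.89 to -0.77, adjusted p = 0.0720), with -1.34 within the A and B arrays and -1.31 between the C arrays. It passed in 5 of 8 alternative settings, with normexp correction (adjusted p = 0.00625), the log2 table of the authors (0.00714), the filter on dim probes (0.0300), the letter as a block (0.0233) and the slide as a block (0.00187). It did not with the 75th percentile (0.232), the mean of all probes (0.0626) or only the 2 groups (0.660), and of the fits that left out an array it passed without DC-Old-LP C alone (0.0483). With the block 3 of 57 Rab genes passed, beside 2.38% of all named genes. The third was Rab44, which read 12.34, 12.45 and 14.16 in DC-Old-LP, above DC-Old for each letter, with a difference of 1.02 (adjusted p = 0.0156 with the block and 1 without). Rab33a read 8.08, 8.10 and 9.10, also above DC-Old for each letter, and differed by 0.75 (adjusted p = 0.0605 with the block).

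Rab7b read 13.55, 13.67 and 13.91 in DC-Old-LP and lay above every DC-Old array, with a difference of 0.87 (adjusted p = 0.611) that was 0.40 within the A and B arrays and 1.82 between the C arrays. Rab34 read 8.72, 8.74 and 10.16, and its groups overlapped. Its difference of -0.92 was -1.53 within the A and B arrays and 0.30 between the C arrays, so the direction turned on the third slide. Rab19, a little-studied Golgi Rab, read 10.71, 10.76 and 10.49 in DC-Old and 10.81, 10.88 and 11.53 in DC-Old-LP, with no overlap and a difference of 0.42 (adjusted p = 1). Rab39 read 5.74, 5.82 and 4.25, Rab3b 3.04, 2.88 and 4.36, and Rab40b 2.96, 3.35 and 2.29. Each of these 3 overlapped with DC-Old and none passed, and Rab3b was well above background on no DC-Old-LP array.

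Without adjustment 4 of 57 passed, 2 higher and 2 lower, beside 6.67%, and the groups did not overlap for 4 of 57, beside 10.5%. The median difference over the 57 was -0.11, beside 0.01 over all named genes. By compartment, differences ran from -0.37 to 5.37 for the endoplasmic reticulum and Golgi, from -0.33 to 1.12 for early endosomes, from -0.94 to 0.56 for recycling endosomes and the plasma membrane, from -1.43 to 0.98 for late endosomes and phagosomes and from -1.16 to 0.45 for regulated secretion. None of the antigen-handling Rabs Rab5a, Rab7, Rab8b, Rab10, Rab11a, Rab14, Rab20, Rab27a, Rab32, Rab35 and Rab43 passed. The megakaryocyte and erythroid markers had a median difference of -1.30, and none of the 7 passed, or 3 of 7, all lower, with the block. Their part was not tested.

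**Figure D4:**
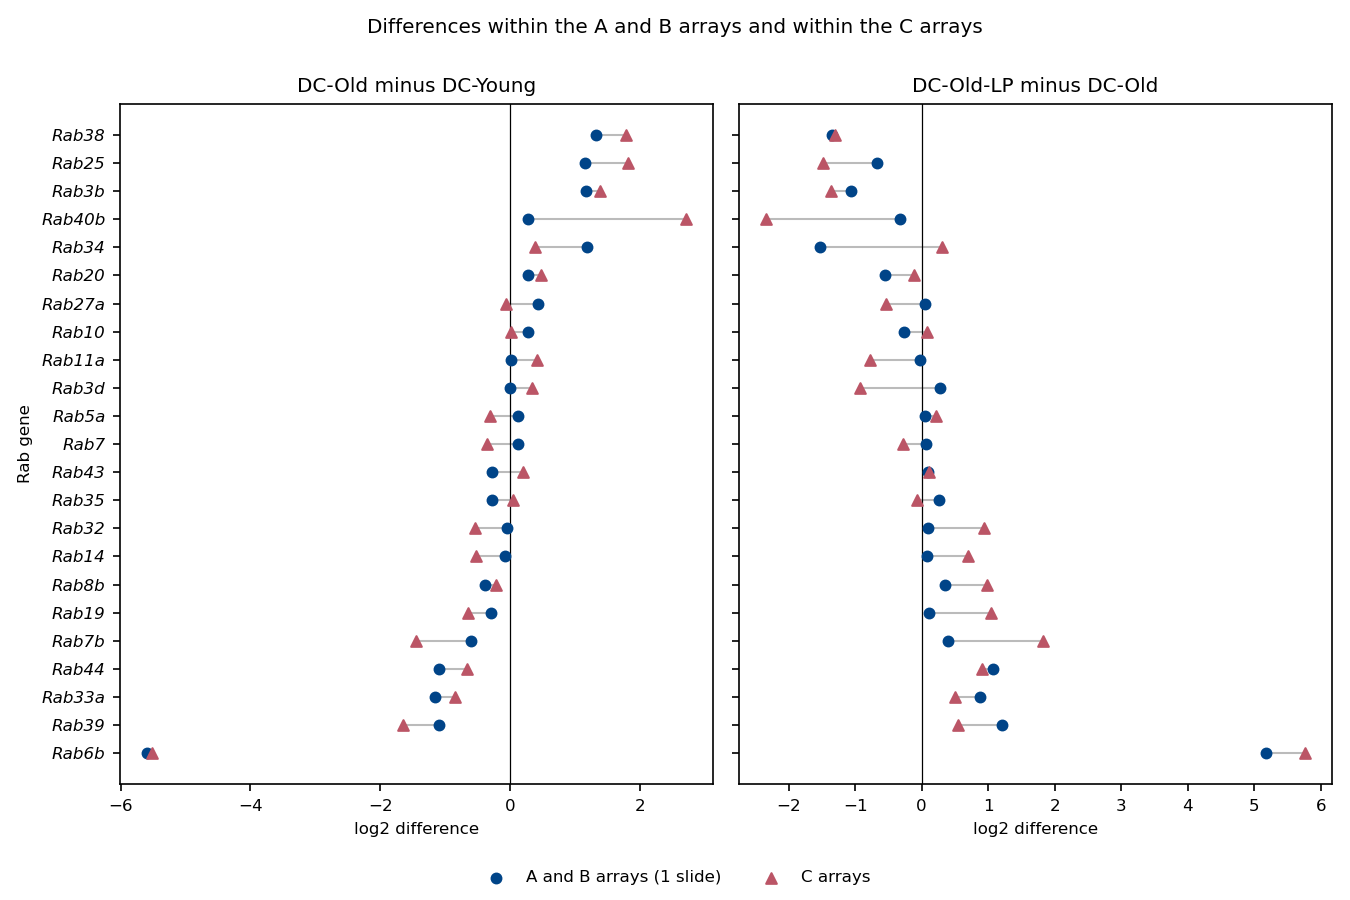
Log2 difference of 23 named Rab genes within the A and B arrays of the first slide (circles) and between the C arrays (triangles), for DC-Old minus DC-Young (left, where the C arrays lie on 2 slides) and DC-Old-LP minus DC-Old (right, where they share 1). Rab6b and Rab38 have the same sign in both sets of arrays, with the DC-Old readings of Rab6b at background so that its sizes are not exact, and Rab34 has opposite signs on the right.

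The other 3 comparisons set DC-Old-LP and DC-Old against the young groups. DC-Old-LP against DC-Young had no Rab gene past the thresholds, with or without the block, and 0% of all named genes, and 0 of 57 without adjustment, beside 0.941%. Differences ran from -0.45 to 0.44. Rab6b differed by -0.20 (interval -1.14 to 0.75) and Rab38 by 0.14 (interval -0.42 to 0.70), so a halving of Rab6b lies inside its interval. DC-Old-LP against DC-Dysbiotic had none, beside 0.198%, 3 of 57 without adjustment, beside 3.96%, and 1 with the block, beside 0.801%, which was Rab44 at 0.89 (adjusted p = 0.0470). Rab6b differed there by 1.20 (interval 0.25 to 2.15, adjusted p = 1). DC-Old against DC-Dysbiotic had none, beside 0.00413% both with and without the block, and 3 of 57 without adjustment, beside 1.61%. There the DC-Old level of Rab6b was below that of DC-Dysbiotic by at least 4.04-fold on the scale used here, and missed the threshold at an adjusted p of 0.0523. The bound was at least 7.13-fold within the A and B arrays but at least 1.30-fold between the C arrays, which lie on different slides. Rab6b passed without DC-Old A (-4.69, adjusted p = 0.00739).

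The order of Rab6b levels was thus DC-Young (7.99), DC-Old-LP (7.79), DC-Dysbiotic (6.59) and DC-Old (2.42). The first pair overlapped on arrays, while DC-Dysbiotic lay below both on every array, with adjusted p of 0.558 and 1 and intervals that left out 0. For Rab38 the order was the opposite, DC-Old (10.09), DC-Dysbiotic (9.53), DC-Old-LP (8.76) and DC-Young (8.62). The last pair overlapped on arrays, and in the main fit DC-Old against DC-Young was the only pair that passed. DC-Old-LP against DC-Old passed in some of the alternative settings, as given above. With the slide as a block, DC-Old-LP against DC-Dysbiotic passed as well (-0.98, adjusted p = 0.0252).

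Other probes of the Rab genes numbered 36, of which 18 were well above background on every array and 5 on none. None of them passed in any of the 6 comparisons, with or without the block. For DC-Old against DC-Young, 10 of the 36 differed from the main probe's difference by more than 0.5. An example is Rab3d, a Rab of secretory granules, with 0.12 at its main probe and -0.66 at another.

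The proteins that switch, anchor and read Rabs were taken from lists of 134 genes in all with a probe. For age, antibiotics and LP alike (the first 3 comparisons above), none of 37 GEFs, 34 GAPs or 8 prenylation and GDI genes passed. Their medians in DC-Old against DC-Young were -0.08, 0.14 and 0.09. Of 55 effectors, 1 passed in each of these 3 comparisons, and it was the same gene, Sytl4 (granuphilin), which docks secretory granules by binding Rab27a. The share of 0.746% of the 134 genes stood beside 0.904%, 0.475% and 0.512% of all named genes in these comparisons. Sytl4 read 6.03, 5.75 and 6.01 in DC-Young, 8.06, 8.02 and 8.21 in DC-Dysbiotic, 8.20, 8.18 and 7.52 in DC-Old and 6.00, 5.94 and 6.54 in DC-Old-LP. DC-Dysbiotic and DC-Old lay above DC-Young and DC-Old-LP on every array. It was higher by 2.04 in DC-Old (adjusted p = 0.00772) and by 2.17 in DC-Dysbiotic (adjusted p = 0.00753) than in DC-Young, and DC-Old-LP minus DC-Old was -1.80 (adjusted p = 0.0220). With the mean of each gene's probes in place of the brightest probe, no gene of these lists passed. Megakaryocyte and erythroid markers differed between the same groups, 5 of 7 in the direction of Sytl4, and their part in this result was not tested.

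With the letter as a block, Rilpl1 also passed in these 3 comparisons. Rilpl1, which binds Rab8 and Rab10, read 6.30, 6.30 and 7.12 in DC-Young, 7.51, 7.48 and 8.06 in DC-Dysbiotic, 7.65, 7.72 and 8.59 in DC-Old and 6.39, 6.54 and 7.06 in DC-Old-LP. DC-Dysbiotic and DC-Old lay above the other two on every array. It differed by 1.41 in DC-Old against DC-Young (adjusted p = 0.00225 with the block and 0.186 without) and by -1.32 for DC-Old-LP minus DC-Old (0.00467 and 0.285). With the block, 1 further effector was higher in DC-Old-LP than in DC-Old. With the block, 1.49% of the 134 genes passed in DC-Old against DC-Young, beside 3.06% of all named genes, 1.49% beside 1.38% for DC-Dysbiotic, and 2.24% beside 2.38% for LP.

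**Figure D5:**
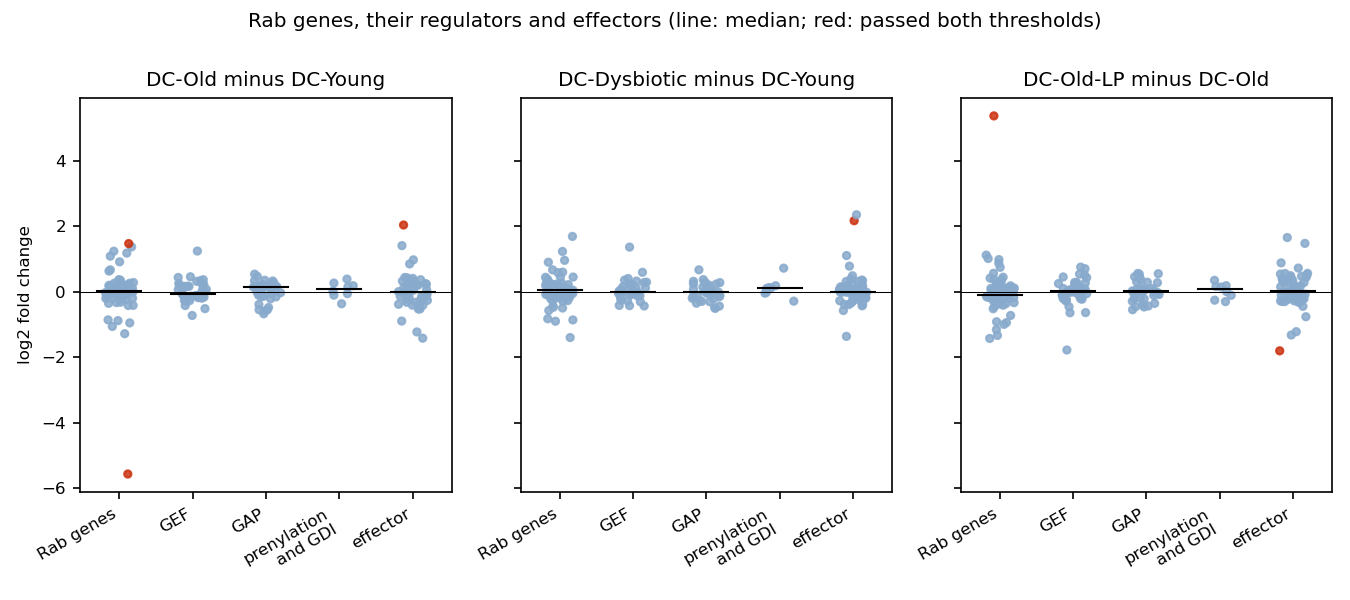
Log2 fold change of the 57 Rab genes and of genes listed as their GEFs, GAPs, prenylation and GDI factors and effectors in 3 comparisons, 1 point a gene with the median as a line. Red points passed both thresholds. Among the Rab genes these were Rab6b and Rab38 for DC-Old minus DC-Young, none for DC-Dysbiotic minus DC-Young and Rab6b for DC-Old-LP minus DC-Old. Among the effectors it was Sytl4 in each panel.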

How the data were processed

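Single-colour spot intensity was deposited by the authors as Agilent Feature Extraction output (its version differs between the processing notes and the headers), beside a log2 table of 46302 probes that the authors had quantile normalized. Here the 1068 outlier readings were set missing, and log2 intensity was quantile normalized and averaged to 56605 probes. Accessions matched 35405 probes to 24232 symbols in RefSeq (GRCm38.p6, while the headers name mm9, so no probe position is given). limma 3.58.1 in R 4.3.3 was fitted to all 12 arrays, and p-values are two-sided and Benjamini-Hochberg adjusted over all probes. The fit alone was tested on simulated arrays in which 200 probes were changed by known amounts. Their noise was independent between arrays, without the slides or the dim C arrays of these data. The members, lists, named genes (the 8 smallest p in 2 comparisons, every call and a fixed set of antigen-handling Rabs) and alternatives were chosen with earlier results of these data known. No depth is counted on arrays, and their number limits precision. Deviations from group means correlated at 0.415 to 0.711 between arrays of the same letter and at 0.449 to 0.570 between A and B. Between C and the others they correlated at -0.659 to -0.466. The data thus set C apart from A and B, but do not show A and B as separate pairs. The letter was still used as a block, and its C level joins the slide of the young groups with that of the old groups. A probe dim on all arrays of a group was set, per array, at the lowest signal well above background. 1 gene is not reported here.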

Additional observations from a re-analysis of the deposited data

How the results depend on the processing

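The number of Rab genes passing was recomputed under the alternatives and without each array in turn. In DC-Old against DC-Young it was 1 with the 75th percentile shift, 4 with the replicate block or the slide block, 0 with only the 2 compared groups, and 1 to 2 with an array left out. In DC-Dysbiotic against DC-Young it was 2 with the replicate block and 4 with the slide block. In DC-Old-LP against DC-Old it was 2 with normexp correction, the log2 table of the authors or the filter on dim probes, 3 with the replicate block, 4 with the slide block, 0 with only the 2 groups, and 1 to 2 without an array. In DC-Old-LP against DC-Dysbiotic it was 1 with the replicate block or the slide block. In DC-Old against DC-Dysbiotic it was 1 with the filter on dim probes, and 0 to 1 without an array. The slide block raised the share of all named genes too. It rose from 0.904% to 3.82% for age, from 0.475% to 2.88% for antibiotics and from 0.512% to 4.48% for LP. The Rab share with that block was 7.02% in each of these. For the pair of DC-Old-LP and DC-Dysbiotic it was 1.75%, beside 1.02% of all named genes. Whether the Rab genes rose beyond the general rise was not tested. For the Rab genes the replicate block changed no other call. Among cell type markers it raised the number passing in DC-Old against DC-Young from 0 to 3 of 12 for DCs (1 higher, 2 lower), 0 to 1 of 8 for macrophages and 1 to 4 of 7 for megakaryocyte and erythroid cells, the last from 1 to 3 in DC-Dysbiotic against DC-Young. In DC-Old-LP against DC-Old it raised it from 0 to 3 for these, and from 0 to 1 for DCs, macrophages, neutrophils and mast cells, and in DC-Old-LP against DC-Dysbiotic from 0 to 1 for megakaryocyte and erythroid cells and for neutrophils. The replicate block also raised the share of all named genes passing. It rose from 0.904% to 3.06% for age, from 0.475% to 1.38% for antibiotics and from 0.512% to 2.38% for LP. For the pair of DC-Old-LP and DC-Dysbiotic it rose from 0.198% to 0.801%. Whether the marker lists rose beyond this general rise was not tested. The cause of these changes was not tested.

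Rab6b, for which the mean of all probes and the intensity trend were not run, kept its direction under the other alternatives except its other probe, which was never well above background and gave 0.24, 0.0193, -0.21 and 0.22 in DC-Old against DC-Young, DC-Dysbiotic against DC-Young, DC-Old-LP against DC-Old and DC-Old against DC-Dysbiotic, and 0.03 in DC-Old-LP against DC-Young. With only the 2 groups in the fit, its unchanged differences of -5.56 and 5.37 no longer passed. That fit takes the spread from these 2 groups alone, and the reason was not tested. In DC-Old against DC-Dysbiotic, -4.17 passed (adjusted p = 0.0171) with the filter on dim probes. It tested fewer probes but kept Rab6b, which was dim in DC-Old. Without an array, its differences ran from -6.09 to -5.24, from 5.05 to 5.89 and from -4.69 to -3.84 in DC-Old against DC-Young, DC-Old-LP against DC-Old and DC-Old against DC-Dysbiotic, and from -1.63 to -1.21, from -0.42 to -0.07 and from 1.02 to 1.42 in the others. The number of listed regulators and effectors passing in any comparison, with alternatives chosen after seeing the data, was 1, and 0 with the mean of all probes, 3 with the replicate block, 4 with the slide block, and 1 to 2 without an array. The authors' table holds probes for 54 of 57 members, and the filter kept 47. No result of the named genes that passed changed direction. Weak members are limited by signal over background, above all on the C arrays.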
